A study of Danio rerio with 14 samples.

Results

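The pentose phosphate pathway takes glucose 6-phosphate away from glycolysis. Its oxidative branch reduces NADP+ to NADPH and ends in ribulose 5-phosphate, and its non-oxidative branch rearranges pentoses reversibly into sugars of glycolysis. Ribose 5-phosphate is also the start of phosphoribosyl pyrophosphate (PRPP), from which nucleotides are made. In the retina NADPH is used, among other things, to keep glutathione and thioredoxin reduced and to reduce retinal to retinol in photoreceptors, and NADPH oxidases use it to make superoxide.

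Described here are 6 genes of this pathway among the 19859 genes of the deposited table: *pgd* (ENSDARG00000015343), *h6pd* (ENSDARG00000060153), *rpe* (ENSDARG00000005251), *prps1a* (ENSDARG00000015524), *prps1b* (ENSDARG00000037506) and *tkta* (ENSDARG00000029689). They were chosen by name as the genes in a supplementary list of the study, which was drawn up from differences between these same retinas, so their calls between genotypes describe the choice and are no independent evidence. By reaction, *pgd* (6-phosphogluconate dehydrogenase of the cytosol) and *h6pd* (hexose-6-phosphate dehydrogenase of the endoplasmic reticulum lumen) are oxidative enzymes. *rpe* (ribulose-5-phosphate 3-epimerase, not to be confused with the retinal pigment epithelium, RPE) and *tkta* (a transketolase) are non-oxidative enzymes. *prps1a* and *prps1b* are paralogs that encode PRPP synthetases. The study places *rpe* and both *prps1* genes with the oxidative branch, and that grouping is given as an alternative.

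RNAseq was performed on dissected retinas, RPE included, of 7 *chmru848* and 7 wt zebrafish at 5 dpf. The *chmru848* line carries a mutation of *chm*, which encodes Rab escort protein 1, throughout the animal, so no cell type is targeted. Its retina degenerates and the larvae die at about the age sampled, and the wt fish are of the AB strain. The study counts 7 zebrafish per genotype, but the labels tie no sample to an animal, clutch or day, so p-values measure the spread between these samples.

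Estimated reads on genes were 14.3 M to 29.5 M reads per *chmru848* retina and 18.0 M to 26.3 M per wt retina, and 369 to 1983 genes were listed at 0 in a *chmru848* retina against 317 to 628 in a wt retina. *chmru848* replicates 5 and 7 were the deepest of their genotype, at 28.2 M and 29.5 M reads. Transcripts of *chm* itself did not separate the genotypes (310 ± 103 normalized counts in *chmru848* and 358 ± 54.6 in wt, SD, n = 7 each, limma adjusted p = 0.358), so they gave no check of the labels. Of the matched markers, 7 of 8 photoreceptor genes and 3 of 4 RPE genes passed the test as lower in *chmru848*, beside 23.7% of all genes. The Müller glia genes went in both directions (*gfap* higher, *rlbp1a* lower). None of the 3 microglia and macrophage genes passed, while the neutrophil gene *lyz* was higher, as were 19.9% of all genes. Of these 3, *csf1ra* was at 0 in 2 mutant retinas and 1 wt retina, and *lcp1* was at 0 in 1 mutant. *apoeb* differed by 0.89 on the deposited log2 scale (limma adjusted p = 0.0790), with 7 of 7 mutants above the wt median. Of the photoreceptor genes, 7 of 8 were above 3 estimated reads in every retina and *opn1lw1* was at 1.99 in *chmru848* replicate 3. Their summed level was 83570 to 460400 normalized counts in *chmru848* and 254000 to 1958000 in wt.

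Values are given as normalized counts, which are the deposited values with the authors' variance-stabilizing transformation undone. Differences are *chmru848* minus wt means on the deposited log2 scale, with the standard error (SE) and adjusted p of limma over 19751 genes. This scale compresses low values. Gene lengths were not used, so levels are compared between retinas and not between genes. At an adjusted p of 0.05, 3940 genes (19.9%) were higher and 4687 (23.7%) lower in *chmru848*. Of the 6 genes, 5 were called higher and 1 lower, with a median difference of 1.09 beside -0.06 over all genes tested. In 1496 genes (7.57%) every *chmru848* retina was above every wt retina, and in 1576 (7.98%) every one was below. *pgd*, *h6pd* and *prps1a* were of the first kind and *tkta* of the second, which follows in part from how the genes were chosen.

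**Figure D1:**
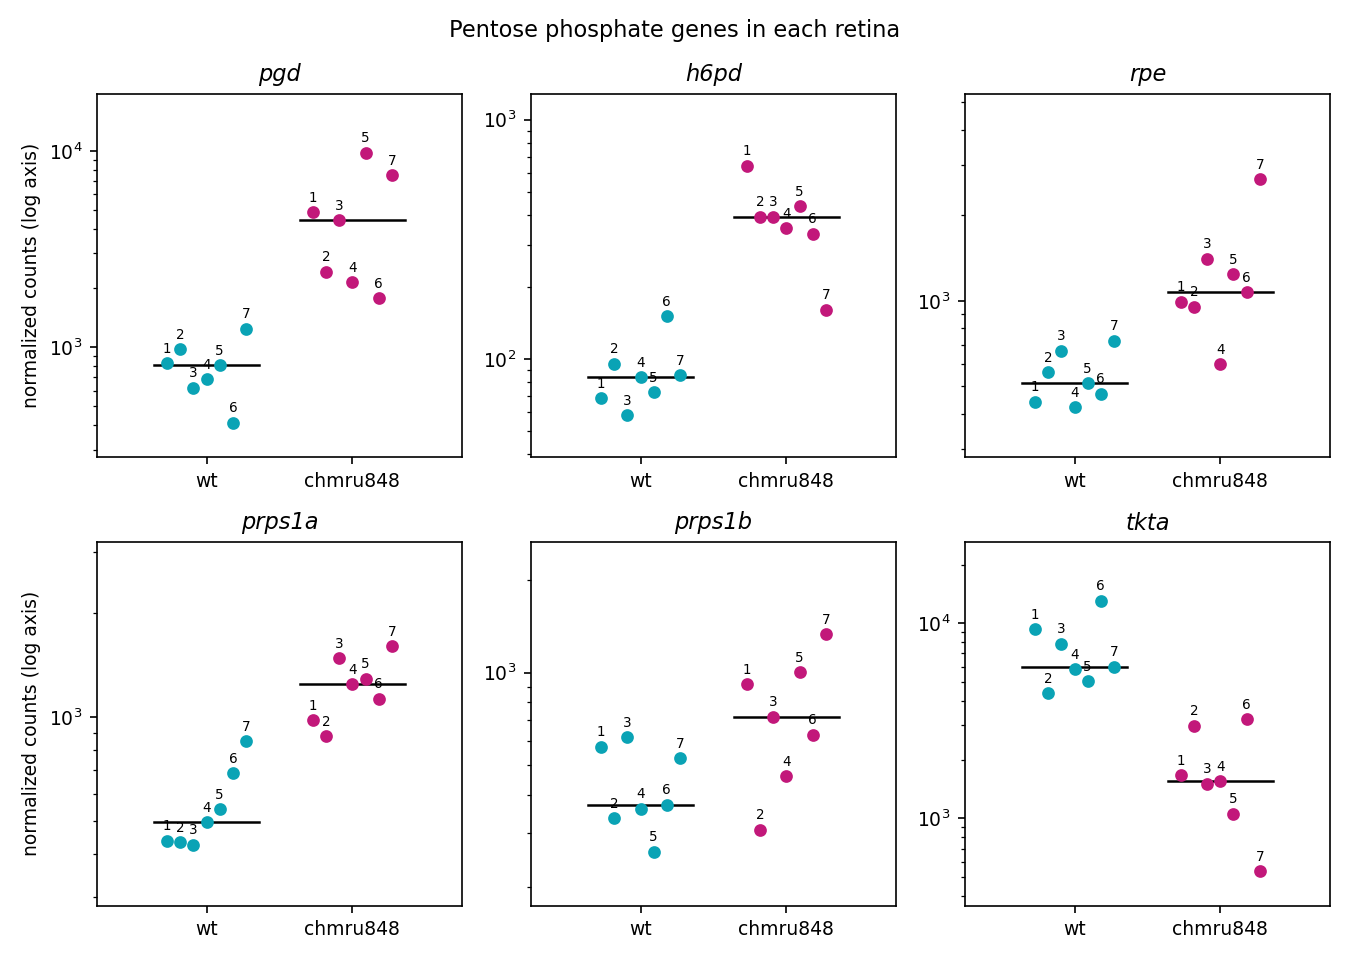
Normalized counts (log axis) of the 6 pentose phosphate genes, with 1 point per retina, labelled by its replicate number, and a line at the median of the 7 retinas of each genotype. *pgd*, *h6pd* and *prps1a* lie higher in all 7 *chmru848* retinas than in any wt retina and *tkta* lies lower, whereas 1 *chmru848* retina for *rpe* and 2 for *prps1b* fall within the wt range.

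The 2 oxidative genes had the largest upward differences of the 6. *pgd* encodes the enzyme of the second NADPH-forming step, in which 6-phosphogluconate becomes ribulose 5-phosphate. Its level was 412 to 1242 normalized counts in wt (median 809) and 1775 to 9807 in *chmru848* (median 4437). Every mutant retina was above every wt retina, but the mutants spread widely: replicates 5 (9807) and 7 (7539) were the highest, and replicates 2 (2427), 4 (2143) and 6 (1775) the lowest. The mean was 4713 ± 3014 in *chmru848* and 796 ± 265 in wt (SD, n = 7 each), a ratio of means of 5.92. The difference was 2.32 (95% confidence interval 1.60 to 3.04, SE 0.34, limma adjusted p = 3.45e-05), and 2.64% of all genes tested had a larger one in either direction. Without replicates 5 and 7 the difference was 1.87 (adjusted p = 6.71e-05).

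*h6pd* encodes an enzyme that carries out the first oxidative steps inside the endoplasmic reticulum and supplies NADPH there. It had 58.4 to 151 normalized counts in wt (median 83.9) and 161 to 643 in *chmru848* (median 392). The genotypes did not overlap, though the gap was narrow at its edge, since wt replicate 6 (151) stood just under *chmru848* replicate 7 (161). The means were 387 ± 143 and 88.0 ± 30.5 (SD, n = 7 each), a ratio of 4.40. The difference was 1.72 (1.23 to 2.22, SE 0.24, limma adjusted p = 1.66e-05). At 67.5 estimated reads or more in each retina, *h6pd* was the least deeply read of the 6 genes, and still far above the floor of 3 reads.

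*rpe* encodes the epimerase that turns ribulose 5-phosphate into xylulose 5-phosphate, a substrate of transketolase. It had 422 to 725 normalized counts in wt (median 513) and 599 to 2683 in *chmru848* (median 1073). *chmru848* replicate 7 was the highest, and replicate 4 (599) lay within the wt range. The means were 1278 ± 669 and 543 ± 115 (SD, n = 7 each), a ratio of 2.35. The difference was 1.07 (0.55 to 1.59, SE 0.25, limma adjusted p = 0.00189), and 20.5% of genes tested differed by more.

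*tkta* encodes a transketolase, which moves units of a pair of carbons between sugars and links the pathway back to glycolysis. It was the only one of the 6 that fell. It had 4390 to 13054 normalized counts in wt (median 5985) and 535 to 3221 in *chmru848* (median 1550). All mutant retinas were below all wt retinas, with *chmru848* replicate 7 the lowest and wt replicate 6 the highest. The means were 1789 ± 979 and 7353 ± 3025 (SD, n = 7 each), so that wt had 4.11 times the mutant level. The difference was -2.12 (-2.82 to -1.42, SE 0.33, limma adjusted p = 6.56e-05), and 3.61% of genes tested had a larger one.

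Most photoreceptor genes were lower in the same retinas, with a median difference of -2.51 over the 8 matched, though *crx* fell by 0.48 only and *pde6c*, a cone phosphodiesterase gene, did not pass (0.22, limma adjusted p = 0.628). In these bulk samples fewer cells of a type and less RNA per cell cannot be told apart. How *tkta* stood against photoreceptor genes depended on the gene. The ratio of *tkta* to *gnat2*, the cone transducin gene, had a median of 0.0352 in wt and 0.0674 in *chmru848*, and 6 of 7 mutant retinas lay within the wt range of 0.0177 to 0.289. Of the mutant retinas, 6 lay within it also against *opn1mw1*, 5 each against *opn1sw2*, *opn1lw1* and *rcvrna*, 3 against *gnat1*, the rod transducin gene, and 2 against *crx*. The upper end of all these wt ranges was wt replicate 6, so these counts rest in part on that retina. It had the highest *tkta* of the wt retinas and the lowest *gnat1*, *gnat2*, *opn1sw2*, *opn1mw1* and *rcvrna*. Counts without wt replicate 6 were not computed, so they do not show that *tkta* kept step with these genes. From wt to *chmru848* the median ratio rose from 0.00906 to 0.0699 against *opn1mw1* and from 5.71 to 25.7 against *opn1lw1*. It was also higher in *chmru848* against *gnat1* and *rcvrna*, and lower against *opn1sw2* (0.0182 to 0.0168) and *crx* (0.418 to 0.144). Against *pde6c* the ratio was lower in each mutant retina, at 0.0495 to 0.159 beside 0.198 to 1.32 in wt. These ratios were chosen after the values were seen, carry no test, and the part of photoreceptors in the *tkta* difference was not tested.

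PRPP synthetase genes were the third group. *prps1a* had 426 to 852 normalized counts in wt (median 495) and 880 to 1606 in *chmru848* (median 1244), without overlap. The wt retina nearest the mutants was replicate 7, and the mutant nearest wt was replicate 2. Its means were 1230 ± 259 and 554 ± 161 (SD, n = 7 each), a ratio of 2.22, and its difference was 1.11 (0.71 to 1.51, SE 0.19, limma adjusted p = 0.000136). It was the steadiest of the 6 genes among mutant retinas, with a coefficient of variation of 21.1%, beside 64.0% for *pgd*.

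*prps1b* was the weakest call. It had 261 to 617 normalized counts in wt (median 370) and 307 to 1333 in *chmru848* (median 717). The genotypes overlapped, since replicates 2 (307) and 4 (458) of the mutants fell within the wt range. Its means were 766 ± 348 and 434 ± 136 (SD, n = 7 each), a ratio of 1.76, and its difference was 0.69 (0.12 to 1.27, SE 0.27, limma adjusted p = 0.0491). The call was lost in 9 of the 14 fits that left out 1 retina (*chmru848* replicates 1, 3, 5, 6 and 7, wt replicates 2, 4, 5 and 6), with adjusted p up to 0.106, and the difference was 0.41 without both *chmru848* replicates 5 and 7 (adjusted p = 0.208).

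As the 2 paralogs may share reads, which RSEM divides between them, they were also summed. Together they had 768 to 1378 normalized counts in wt and 1188 to 2939 in *chmru848*, with means of 988 ± 209 and 1996 ± 552 (SD, n = 7 each), a ratio of 2.02. *prps1a* took 56.1% ± 10.3 of the sum in wt and 63.1% ± 9.03 in *chmru848* (SD, n = 7 each). Its share ran from 40.9% to 67.5% in wt and from 51.6% to 74.1% in *chmru848*, and the difference of 6.92 percentage points did not pass (two-sided exact permutation p = 0.207).

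For single genes, exhaustive permutation of the genotypes (3432 arrangements, two-sided, exact) gave p = 0.000583, the smallest it can give, for *pgd*, *h6pd*, *prps1a* and *tkta*. The exact permutation p was 0.00175 for *rpe* and 0.0420 for *prps1b*, before any adjustment. The genes come from a list drawn up from this same difference in these retinas, so these p-values are no independent evidence of it. By RT-qPCR on pooled eyes, the study reports *pgd*, *prps1a* and *prps1b* as significantly higher in untreated *chmru848* than in wt.

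A ratio of 2 genes within a retina does not depend on how that retina was scaled. With *tkta* as the denominator the direction follows from the choice of genes, so the ratios are given with no test. *pgd* to *tkta* was 0.0316 to 0.221 in wt (median 0.118) and 0.551 to 14.1 in *chmru848* (median 2.92). On the log2 scale its mean moved by 4.53, or 23.2-fold, and by 3.67 without the deep replicates 5 and 7. The mutants spanned a wide range, from replicate 6 at the low end to replicate 7 at the high end. *h6pd* to *tkta* moved by 4.25 on that scale, or 19.1-fold, from a wt median of 0.0144 to 0.261, and by 4.02 without those replicates, and its mutant values were closer together (0.104 to 0.413). The ratios of *prps1a*, *rpe* and *prps1b* to *tkta* moved by 10.01-fold, 9.70-fold and 7.43-fold. In none of these 5 pairs did the genotypes overlap, but *tkta* by itself already separated them. The separation, too, therefore follows in part from the choice of *tkta*.

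The oxidative against the non-oxidative branch was summarised in each retina as the mean log2 normalized count of *pgd* and *h6pd* minus that of *rpe* and *tkta*, again with no test. This index was -2.92 ± 0.42 in wt and -0.17 ± 0.71 in *chmru848* (SD, n = 7 each), a shift of 2.75. It ran from -3.58 to -2.36 in wt and from -1.27 to 0.85 in *chmru848*, so the lowest mutant (replicate 6) stood above the highest wt retina (replicate 2). Its level has no zero with a meaning, because gene lengths were not used. Under the study's grouping, with 5 genes set against *tkta*, the shift was 3.66. The index averages 2 non-oxidative genes that moved in opposite directions: *rpe* rose and *tkta* fell, and *rpe* to *tkta* changed by 3.28 on the log2 scale within the branch. The shift covers the chosen genes alone, and its direction follows in part from that choice. *pgls* of the oxidative branch and *rpia* and *taldo1* of the non-oxidative branch, described below, are not in the index.

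**Figure D2:**
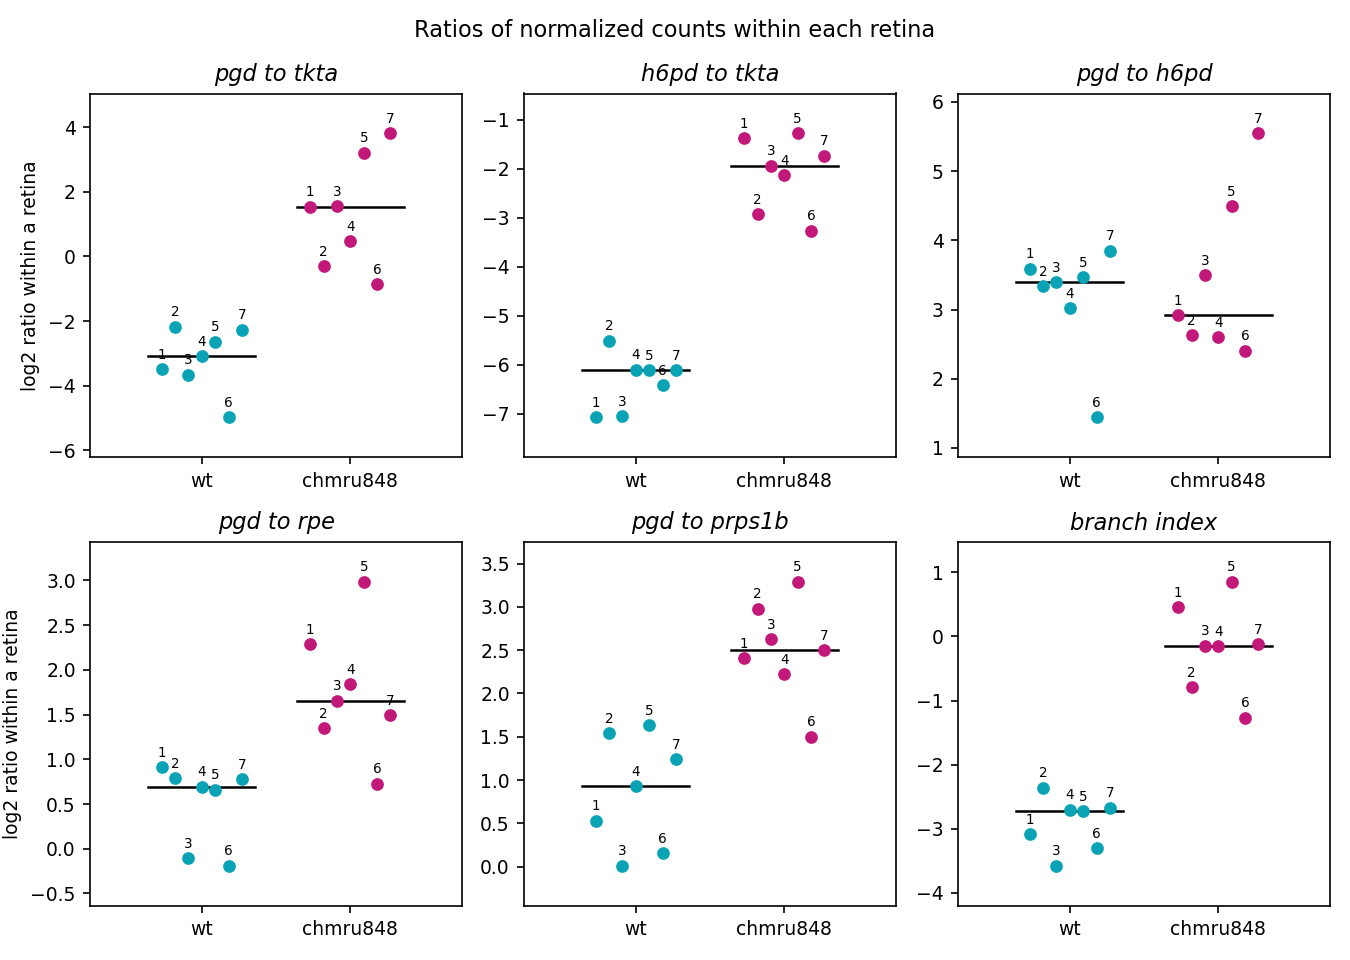
Log2 ratios of normalized counts (0.5 added) within each retina for 5 pairs of genes, and the branch index, with 1 point per retina, labelled by its replicate number, and a line at the median of each genotype. The genotypes separate for *pgd* to *tkta*, *h6pd* to *tkta* and the branch index, overlap widely for *pgd* to *h6pd*, and overlap at 1 mutant retina for *pgd* to *rpe* and *pgd* to *prps1b*.

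The 10 pairs without *tkta* compare genes that were all higher in the mutants, and were tested by permuting the genotypes of the retinas exhaustively, two-sided, on the mean log2 ratio, with Benjamini-Hochberg adjustment over the 10. As the genes were chosen from differences between these same retinas, the p-values describe these samples and are no independent evidence. In these retinas *pgd* rose more than *rpe*, *prps1a* and *prps1b*. *pgd* to *rpe* had a median of 1.62 in wt and 3.15 in *chmru848*, and its mean log2 ratio rose by 1.26, or 2.39-fold (adjusted exact permutation p = 0.0117). *pgd* to *prps1b* went from a median of 1.90 to 5.65 and rose by 1.64, or 3.12-fold (adjusted exact permutation p = 0.0117). Only *chmru848* replicate 6 lay within the wt range in either pair. *pgd* to *prps1a* rose by 1.21, or 2.31-fold (adjusted exact permutation p = 0.0253), and without *chmru848* replicates 5 and 7 by 0.86 (p = 0.0547).

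Calls for the ratios of *h6pd* to *rpe*, *prps1a* and *prps1b* changed when single retinas were left out. *chmru848* replicate 7 had the least *h6pd* of the mutants and the most *rpe*, *prps1a* and *prps1b*. *h6pd* to *prps1b* rose by 1.36, or 2.57-fold (adjusted exact permutation p = 0.0495), a call that was lost in 12 of 14 tests with 1 retina left out, with p up to 0.0932. It held without *chmru848* replicate 7 and without wt replicate 6, and the lowest p, without *chmru848* replicate 7, was 0.00583. *h6pd* to *rpe* (0.97, p = 0.116) and *h6pd* to *prps1a* (0.93, p = 0.0524) did not pass the exact permutation test with all retinas and did so without *chmru848* replicate 7 (1.37 and 1.19, p = 0.00583 for both).

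The 2 oxidative genes were not shown to differ in their rise. *pgd* to *h6pd* had a median of 10.5 in wt and 7.56 in *chmru848*, whereas its mean log2 ratio was 0.28 higher in *chmru848* (adjusted exact permutation p = 0.686). It spanned 2.72 to 14.4 in wt and 5.31 to 46.8 in *chmru848*. *rpe* to *prps1a* (-0.05, p = 0.868), *rpe* to *prps1b* (0.38, p = 0.239) and *prps1a* to *prps1b* (0.43, p = 0.252) did not pass the same exact permutation test either.

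Among retinas of 1 genotype no pair of the genes was shown to move together. Over the 7 *chmru848* retinas 7 of the 15 pairs of genes had a positive Pearson correlation of their deposited log2 values, from -0.81 to 0.80, and over the 7 wt retinas 9 of 15, from -0.71 to 0.51. None of the 30 passed an exact permutation test after Benjamini-Hochberg adjustment (smallest adjusted p = 0.305 in *chmru848* and 0.318 in wt), by Spearman's rho neither. Before adjustment, 4 pairs in *chmru848* and 0 in wt had a Pearson p of 0.05 or less. In *chmru848* the strongest was *pgd* with *tkta*, with r = -0.81 (exact permutation p = 0.0266) and rho = -0.79 (p = 0.0480), and r = -0.78 without the 2 retinas farthest from the median of *pgd*. The same pair had r = -0.71 in wt (exact permutation p = 0.0702) and rho = -0.50 (p = 0.267), with r = -0.47 without the 2 farthest retinas. *pgd* with *h6pd* had r = -0.10 in *chmru848* (exact permutation p = 0.862, rho = 0.36, p = 0.444) and r = -0.44 in wt (p = 0.311, rho = 0.07, p = 0.906), and without the 2 farthest retinas r was -0.39 and 0.67. In *chmru848*, r of *h6pd* with *rpe* (-0.64), *prps1a* (-0.64) and *prps1b* (-0.27) likewise changed sign without the 2 farthest retinas (0.50, 0.15 and 0.37). So did *h6pd* with *tkta* (0.52, then -0.63) and *prps1a* with *prps1b* (0.64, then -0.17). Several wt pairs changed sign as well, among them *rpe* with *prps1b* (0.40, then -0.55). These signs rest on the retinas left out.

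*chmru848* replicates 5 and 7 held the 2 highest mutant levels of *pgd* and *prps1b* and the 2 lowest of *tkta*. They were also the 2 deepest mutant libraries. Over all genes tested these retinas held the 2 highest mutant levels in 15.1% and the 2 lowest in 13.0%. The part of depth in the spread of the 6 genes was not tested, and the differences of *pgd*, *h6pd*, *rpe*, *prps1a* and *tkta* kept their calls without these retinas.

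Most other genes looked for, of the pathway or next to it, did not pass the test in either direction. Of 12 further genes looked for by name, 10 were matched to an identifier: 2 were called higher, 1 lower and 7 did not pass, with a median difference of -0.05, beside 19.9% and 23.7% called among all genes. Among the matched genes only *pgls*, *rpia* and *taldo1* encode enzymes of the branches themselves. The others act around PRPP or in side steps.

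In the oxidative branch, *pgls*, which encodes 6-phosphogluconolactonase, the source of the substrate of *pgd*, had a difference of -0.41 (-1.75 to 0.93, SE 0.64, limma adjusted p = 0.627). Its levels fell into separate ranges in both genotypes: 19.9 and 59.9 normalized counts in wt replicates 6 and 7 against 548 to 864 in the other wt retinas, and 31.9 and 86.0 in *chmru848* replicates 4 and 1 against 291 to 536 in the other mutants.

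**Figure D3:**
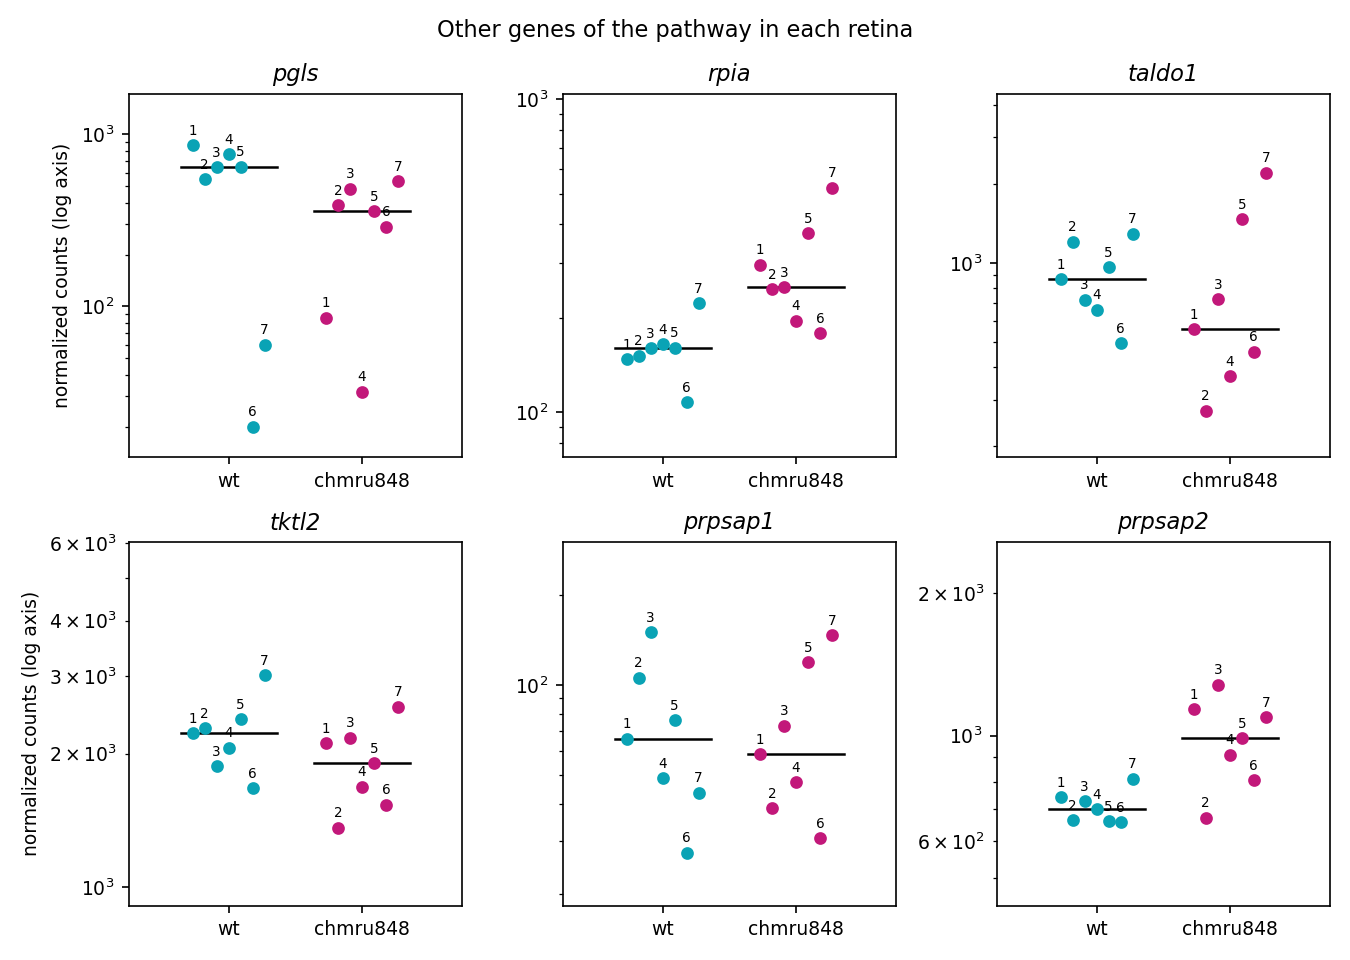
Normalized counts (log axis) of 6 other genes of the pathway or around PRPP, with 1 point per retina, labelled by its replicate number, and a line at the median of each genotype. *tktl2* and *prpsap1* overlap between genotypes, *pgls* splits within both, and *rpia* and *prpsap2* lie higher in most mutants. *taldo1* is highest in *chmru848* replicates 7 and 5 and lowest in *chmru848* replicates 2, 4 and 6.

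On the non-oxidative side, *rpia* rose. It encodes ribose-5-phosphate isomerase, which acts on the same substrate as the epimerase. It had 108 to 223 normalized counts in wt (median 161) and 179 to 522 in *chmru848* (median 251). 2 mutants lay within the wt range, and the difference was 0.70 (0.25 to 1.15, SE 0.22, limma adjusted p = 0.0133). Without *chmru848* replicates 5 and 7 it was 0.46 (adjusted p = 0.0591). *taldo1*, for transaldolase, had 495 to 1292 normalized counts in wt and 273 to 2205 in *chmru848*. Mutant replicates 7 (2205) and 5 (1467) stood above the wt range, and replicates 2 (273), 4 (370) and 6 (459) below it. The *taldo1* difference was -0.30 (-1.07 to 0.47, SE 0.37, limma adjusted p = 0.525), and without *chmru848* replicates 5 and 7 it was -0.85 (adjusted p = 0.0130).

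A further gene of the transketolase family, listed as *tktl2* and added after the values were seen, did not pass. It had 1671 to 3012 normalized counts in wt (median 2224) and 1359 to 2554 in *chmru848* (median 1902), with 5 of 7 mutants inside the wt range. Its difference was -0.22 (-0.59 to 0.14, SE 0.17, limma adjusted p = 0.313). The ratio of *tkta* to *tktl2* had a median of 2.82 in wt and 0.790 in *chmru848*, with no test.

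Around PRPP, *prpsap2*, for a protein that associates with PRPP synthetase, was higher, with 656 to 811 normalized counts in wt and 671 to 1283 in *chmru848*. Its difference of 0.43 (0.10 to 0.76, SE 0.16, limma adjusted p = 0.0352) lost its call in 10 of the 14 fits that left out 1 retina (adjusted p up to 0.0823). *prpsap1* had a difference of -0.01 (-0.61 to 0.58, SE 0.28, limma adjusted p = 0.972). Of the enzymes that feed or drain the pathway, *shpk* (sedoheptulokinase) was called lower, at 3.32 to 16.0 normalized counts in wt and 0 to 5.32 in *chmru848*, where 4 of 7 retinas were at 0. Its difference was -0.65 (SE 0.18, limma adjusted p = 0.00784), and -0.41 (adjusted p = 0.0990) with the number of genes listed at 0 as a covariate. *rbks* (ribokinase), *dera* (deoxyribose-phosphate aldolase), *tigara* and *tigarb* (paralogs of a fructose bisphosphatase) differed by -0.15, 0.37, -0.09 and 0.18 and did not pass (limma adjusted p = 0.192 or more).

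**Figure D4:**
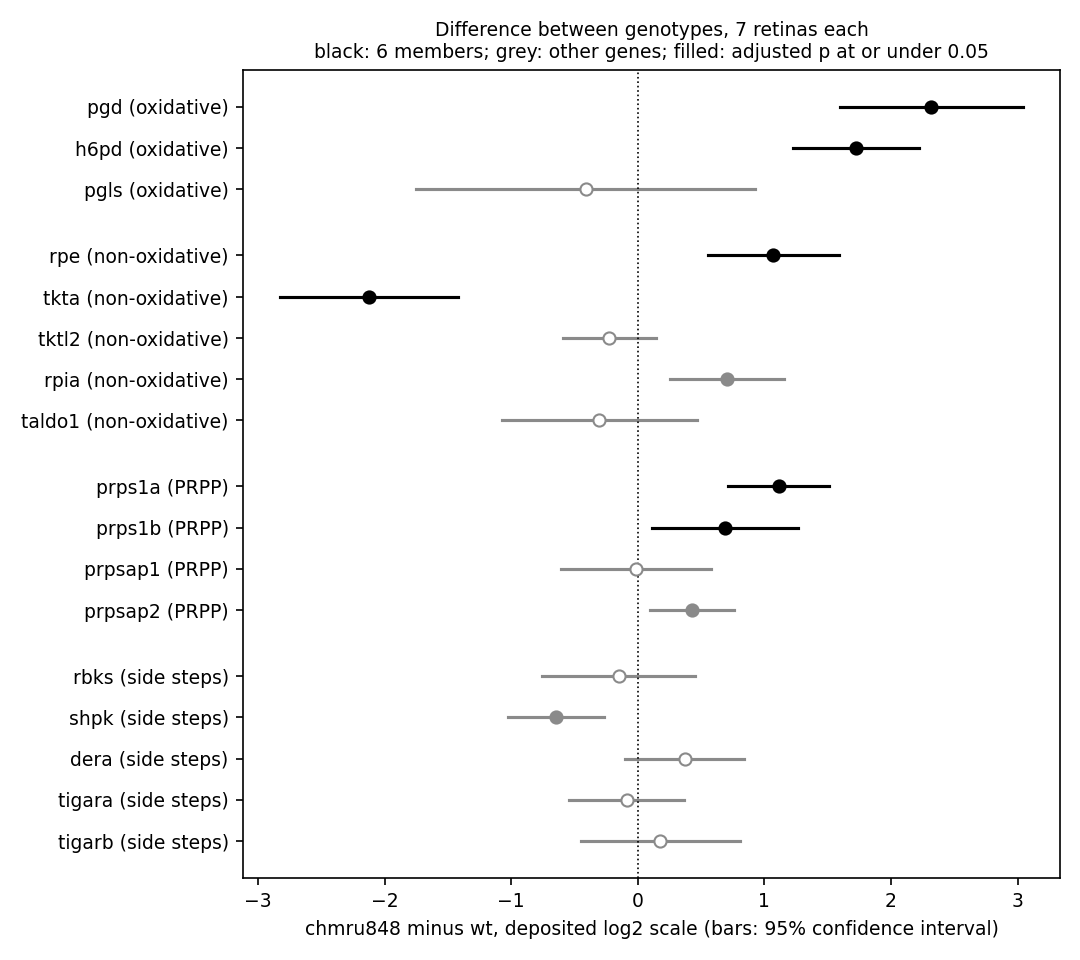
Differences between *chmru848* and wt on the deposited log2 scale with 95% confidence intervals (7 retinas each) for the 6 genes described (black) and 11 other genes (grey), grouped by branch; filled points have a limma adjusted p of 0.05 or less. *pgd* (2.32) and *h6pd* (1.72) lie to the right of *pgls* (-0.41) of the same branch, and *tkta* (-2.12) far to the left of *tktl2* (-0.22).

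Of 6 listed genes of glucose phosphorylation and glycolysis, 4 were called higher and 2 lower, beside 19.9% and 23.7% of all genes. *hk2* and *gck*, which phosphorylate glucose, differed by 1.70 and 1.88 (limma adjusted p = 4.74e-05 and 1.39e-05), and *pfkfb3*, whose product activates phosphofructokinase, by 3.13 (adjusted p = 2.16e-07). The enzymes of the lower pathway *gapdh* (-2.27) and *eno1b* (-1.24) were lower, while *aldoca* was higher (1.79). All 7 mutants lay inside the wt range of *eno1b*. *aldoca* ran from 0 (replicate 1) to 647 normalized counts in *chmru848*, and *gck* from 0 to 15.0 in wt. These 6 are not all the glycolysis genes of the study, which reports those of reactions after the hexokinases as downregulated. By RT-qPCR on pooled eyes of untreated fish, the study found *hk2* higher and *pfkma* lower in *chmru848*. For *gapdh* it found no significant difference. *pfkma*, for a phosphofructokinase, is not among the 6 listed here. Of 8 listed genes of NADPH use or antioxidant defence, 6 were higher (19.9% of all genes), 1 lower (23.7%) and 1 (*ncf4*, an oxidase subunit) did not pass (limma adjusted p = 0.0804). They included *nox1* (1.33), an NADPH oxidase, *txn* (3.85), thioredoxin, and *gclc* (1.73), the first step of glutathione synthesis. *cat*, for catalase, was lower (-1.26). These lists too were taken from the study's calls on these retinas.

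Genes like *pgd* were sought by the mean of the Pearson r within wt and within *chmru848* (7 retinas each), among the genes with a symbol in the supplementary tables only and with no test. The closest were *xbp1* (mean r 0.93), a transcription factor of the unfolded protein response, *eno1b* (0.93), an enolase, and *tbl2* (0.83), which ranked 4, 8 and 222 among all genes tested. *xbp1* was higher in *chmru848* by 2.51, as *pgd* was. *eno1b* was lower by 1.24 (limma adjusted p = 0.0395), with all 7 mutants inside its wt range. It was picked for its high r with *pgd* (0.87 in wt and 0.98 in *chmru848*). Of the wt retinas, replicate 6 was the lowest in both genes, with *eno1b* at 810 normalized counts, and r without that retina was not computed. For *tkta* the closest of these genes were *ankib1b* (mean r 0.74), *il6st* (0.71) and *atf6* (0.70), but they ranked 367, 488 and 517 among all genes tested. All 3 were higher in *chmru848* by 0.94 to 1.39, and so opposite to *tkta* between genotypes.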

How the data were processed

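RNA of 7 *chmru848* and 7 wt retinas was amplified as cDNA (SMART-Seq v4) and sequenced. The authors trimmed reads with Trim Galore 0.6.7, mapped and counted them by gene with STAR 2.7.10a and RSEM 1.3.3 on GRCz11, and normalised the counts with DESeq2 1.38.3. The deposited values are variance-stabilized normalised counts on a log2 scale, from 4.35 (a count of 0) to 23.1. As these are not counts, limma 3.58.1 (R 4.3.3) with a mean-variance trend replaced a count test, over 19751 genes (those at a count of 0 in more than 7 of the 14 retinas, 108 genes, were left out), two-sided, with Benjamini-Hochberg adjustment.

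The transformation was undone from its lowest value and reproduced 250 listed base means within a relative difference of 1.6e-14. Ratios had 0.5 added. Depth was estimated from the step between low values, taken as 1 read: 54.2% to 66.4% of low values were whole multiples of it within 5% of a step, so no count test was run. The floor for calling a gene read was 3 reads and reflects counting error alone. Symbols came from the supplementary tables, otherwise from a gene name table (18974 of 19859 identifiers), with case ignored and only where 1 identifier carried the symbol; *tktb* and *prps2* were not analysed here, and some genes of the lists are not reported here.

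Genes named are the 6 members, 12 other genes of the pathway or next to it, 6 of glucose phosphorylation and glycolysis, 8 around NADPH, and cell type markers. Also named, for *pgd* and *tkta* each, are the 3 genes with the highest mean within-genotype r among those with a symbol in the supplementary tables. The members and lists were chosen with earlier results of these data known. Alternatives changed the filter, trend, robust moderation, sample weights, centring, quantile normalization, the scale, the pseudocount, the test, a replicate block and each retina left out; added after seeing the data were leaving out *chmru848* replicates 1, 2 and 4 (most genes at 0), leaving out replicates 5 and 7 (deepest), a covariate for genes at 0, and equal totals. Scripts were tested on simulated data. Python 3 with scipy was used for the exact tests.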

Additional observations from a re-analysis of the deposited data

Results flagged for a closer look

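Among 66 groups of 7 retinas (16 genes, 15 ratios, the branch index and the *prps1a* share, each in both genotypes), 3 held a retina whose gap to its nearest neighbour was over 0.568 of the group's range. Chance gives about 1 in 20 groups, or 3.3 here. The log2 ratio of *pgd* to *h6pd* was 1.44 in wt replicate 6, against 3.02 to 3.85 in the other wt retinas. The log2 ratio of *pgd* to *prps1a* was -0.74 in the same retina, against 0.47 to 1.16. The log2 ratio of *h6pd* to *rpe* was -4.06 in *chmru848* replicate 7, against -1.84 to -0.63 in the other mutants.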

How the results depend on the processing

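Of 829 alternative values, 770 counted as unchanged, and 0 of the called differences or ratios turned in sign. A called result counted as unchanged if it kept its direction and its call. An uncalled result did so if it stayed uncalled, whatever its sign, and the difference of *pgls* ran from -0.88 to 0.31. Values without a test did so if they stayed within the spread between retinas. The counts of genes called higher and lower stayed within 1.5 times under each alternative run, and with 1 retina left out they were 3524 to 3944 and 4218 to 4785. With 1 retina left out, the difference was 2.10 to 2.51 for *pgd*, 1.60 to 1.89 for *h6pd*, 0.87 to 1.22 for *rpe*, 1.05 to 1.22 for *prps1a*, 0.54 to 0.87 for *prps1b* and -2.29 to -1.88 for *tkta*. The log2 ratio was then 1.14 to 1.71 for *h6pd* to *prps1b*, 0.80 to 1.37 for *h6pd* to *rpe* and 0.74 to 1.19 for *h6pd* to *prps1a*. *prps1b* was no longer called without the variance trend (0.69, limma adjusted p = 0.0536), with quantile normalization (0.66, p = 0.0562), on log2 normalized counts plus 0.5 (0.74, p = 0.0530) or plus 5 (0.73, p = 0.0502), with equal totals (0.74, p = 0.0869), without the 2 deepest mutants (0.41, p = 0.208) or by an exact rank-sum test (0.69, adjusted p = 0.107). Without the 2 deepest mutants *pgd* to *prps1a* was 0.86 (exact permutation p = 0.0547), *h6pd* to *rpe* 1.42 (p = 0.0101) and *h6pd* to *prps1a* 1.21 (p = 0.00631). *h6pd* to *prps1b* was 1.31 with 5 added to counts (exact permutation p = 0.0548), 1.03 on deposited values (p = 0.0874) and 0.79 without *chmru848* replicates 1, 2 and 4 (p = 0.318). The branch index was 3.66 under the study's grouping. The cause of these changes was not tested. The scale moves the median difference of all genes from -0.06 as deposited to -0.13 on log2 normalized counts plus 0.5, and single-gene differences are to be read relative to it.

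Replicate numbers did not pair the retinas: the same-number correlation of deviations was -0.12 to 0.10, over 0.1 in 1 of 7 pairs, and best for the own number in 0 of 7. With the replicate block 4036 genes were called higher and 4791 lower, and the 6 genes kept their calls. For the ratios the block was an exact sign-flip test, whose smallest p is 0.0156 before adjustment: the values were 1.26 for *pgd* to *rpe*, 1.21 for *pgd* to *prps1a*, 1.64 for *pgd* to *prps1b* (adjusted exact p = 0.0521 for each) and 1.36 for *h6pd* to *prps1b* (p = 0.0938).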

Other observations

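The values below were chosen after they were seen and carry no test. Of 16 genes of the pathway or next to it (the 6 described and 10 others), *chmru848* replicates 5 and 7 held the 2 highest mutant levels of 5 (*pgd*, *prps1b*, *rpia*, *taldo1* and *prpsap1*), or 31.3%, and the 2 lowest of 1 (*tkta*), or 6.25%. Over all genes tested the shares were 15.1% and 13.0%. The same retinas held the 2 highest mutant levels of the glycolytic gene *eno1b*.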
